A study of Mus musculus with 6 samples.

Results

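The apolipoproteins L are a family of lipid-binding proteins of the cell interior, and 6 of their mouse genes are described here: Apol7a, Apol7c, Apol6, Apol8, Apol9a and Apol9b. They were taken by gene symbol from a table of 19309 genes, and all 6 were found. The set was built around Apol7a, which was chosen by its difference between the treated and control cheeks in these same libraries, so every difference between the cheeks is given for these 6 genes as a description with no test.

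RNA was sequenced from cheek skin of 3 healthy C57BL/6 mice, 6 to 8 weeks old, with both cheeks taken from each animal, which gave 6 libraries. The tested side (AEW, 3 libraries) was the right cheek, where shaved skin was wiped for 30 s with equal volumes of acetone and ether and then for 30 s with distilled water. The vehicle side (3 libraries) was the left cheek of the same mice, wiped with distilled water for 60 s. Both treatments were given each morning and afternoon over 12 days, and skin was taken on day 12. AEW removes surface lipids and is used as a model of dry, itching skin. No genotype differed between the cheeks, no mouse was left untreated, and the side of the face cannot be told apart from the treatment. The series title names MMP9, but no sample label gives a group that differs in it.

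The libraries held 18449145 to 19506462 estimated counts, and 15109 genes passed the filter on low counts, all 6 members among them. Basal keratinocyte markers were abundant in every library, with a summed level of 11500 to 13100 CPM (counts scaled to library size) in AEW libraries and 7090 to 11300 CPM in vehicle libraries. Skeletal muscle markers were present too, at 9060 to 12800 CPM in AEW libraries and 21000 to 31400 CPM in vehicle libraries, so the tissue held muscle as well as skin. In such bulk tissue, fewer cells of a type and less RNA per cell cannot be told apart.

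Human APOL1, the best known member of the family, is secreted into blood and kills trypanosomes by opening channels in their membranes. The mouse has no direct copy of APOL1, and its genes encode proteins that stay inside cells, where several act on lipid membranes. Apol9a and Apol9b are a near-identical pair induced by interferon in mouse cells, whose proteins bind phosphatidylethanolamine. Apol7c is known from mouse dendritic cells, where its protein acts on the membranes of phagosomes. Apol6 protein sits on the lipid droplets of mouse adipocytes, and its human relative is induced by interferon gamma and promotes cell death.

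The members lie together on mouse chromosome 15. In the RefSeq annotation of GRCm38, an earlier build than the GRCm39 that the submitters' notes name, Apol6 lies apart from the others with Rbfox2 between it and the rest. The order of protein-coding genes then runs Apol7a, Apol9a, Apol7b, Apol10a, Apol11a, Apol7c, Apol10b, Apol11b, Apol7e, Apol9b and Apol8, followed by Myh9. Apol7a and Apol9a are therefore direct neighbours, whereas Apol9b lies beside Apol8 at the other end of the cluster. Log2 fold changes of AEW over vehicle were -2.91 for Apol7a and -1.28 for Apol9a, and -0.06 for Apol9b and 0.83 for Apol8. The Apol9 copies thus had unlike fitted values although their sequences are close.

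Promoter sequence was available for 5 of the 6 members, from RefSeq with the GRCm38.p6 build. The stretches below are the 150 bases before the annotated start and are shown because they differ among members in an interferon-response letter pattern, TTTCNNTTTC, the core of the element bound by interferon regulatory factors. Matches on either strand are in capitals, and neighbouring matches overlap.
Apol7a, chr15:77399111-77399260, minus strand: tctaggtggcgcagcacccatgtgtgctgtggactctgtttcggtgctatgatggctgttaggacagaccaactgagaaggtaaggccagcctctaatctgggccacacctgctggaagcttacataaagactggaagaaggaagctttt
Apol7c, chr15:77533316-77533465, minus strand: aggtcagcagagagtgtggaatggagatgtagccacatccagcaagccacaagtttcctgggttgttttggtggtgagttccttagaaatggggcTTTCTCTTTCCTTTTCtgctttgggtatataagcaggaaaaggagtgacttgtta
Apol8, chr15:77757011-77757160, minus strand: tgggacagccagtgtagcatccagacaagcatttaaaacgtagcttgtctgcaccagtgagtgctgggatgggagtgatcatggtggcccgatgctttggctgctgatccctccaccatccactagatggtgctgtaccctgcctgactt
Apol9a, chr15:77411081-77411230, minus strand: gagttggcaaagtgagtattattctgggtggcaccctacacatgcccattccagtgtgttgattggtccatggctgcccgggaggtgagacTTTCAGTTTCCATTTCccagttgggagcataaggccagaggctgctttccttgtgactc
Apol9b, chr15:77728922-77729071, plus strand: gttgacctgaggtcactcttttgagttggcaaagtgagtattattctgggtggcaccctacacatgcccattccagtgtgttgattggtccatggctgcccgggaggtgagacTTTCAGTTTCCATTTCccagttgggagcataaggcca

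The Apol9a and Apol9b windows hold the same letters over their whole overlap, 278 of 278 bases, with their annotated starts 22 bases apart. Within the full window of 250 bases before to 50 bases after the start, the pattern was present in 3 of the 5 members, Apol7c, Apol9a and Apol9b, and its letters were not found in the windows of Apol7a and Apol8. Among all 27025 genes with such a window, 3.99% held it, and it was present in 16 of 30 genes of an interferon alpha/beta-induced list with a window and in 11 of 18 genes of an interferon gamma-induced list. Counting the family genes outside the set as well, 8 of 11 genes with a window held it, but these genes share ancestry and are not independent. A second pattern, TTCNNNGAA, the palindromic core bound by STAT factors, was in 9.55% of genes and in 0 of the 5 members. These matches describe letters and not bound sites.

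Because the reads were 50 bases long, stretches of that length shared between genes bear on how far the members can be told apart. In GENCODE M21 transcripts, 52.3% of the distinct stretches of Apol9b, 975 in number, were also in Apol9a, and these made up 16.5% of the stretches of Apol9a, whose annotated transcripts are longer. Apol7a shared 13.4% of its stretches with Apol7b, Apol7c or Apol7e, and Apol7c shared 11.9%. Apol7b and Apol7e shared 71.1% and 71.6% with family genes, mostly with each other. Apol6 and Apol8 shared 0 stretches with the family. Outside the listed family genes, 7.15% of the stretches of Apol7a and 17.4% of those of Apol7c were also in other annotated genes. These were chiefly the gene models Gm36329 and Gm8221, which were not analysed here. Both models shared stretches with Apol7a, Apol7b, Apol7c and Apol7e, and whether they are copies of the family was not tested. The estimates of Apol9a and Apol9b are accordingly uncertain as single values, and those of Apol7b and Apol7e more so. Those of Apol7a and Apol7c rest mainly on stretches not shared with the listed family genes.

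**Figure D1:**
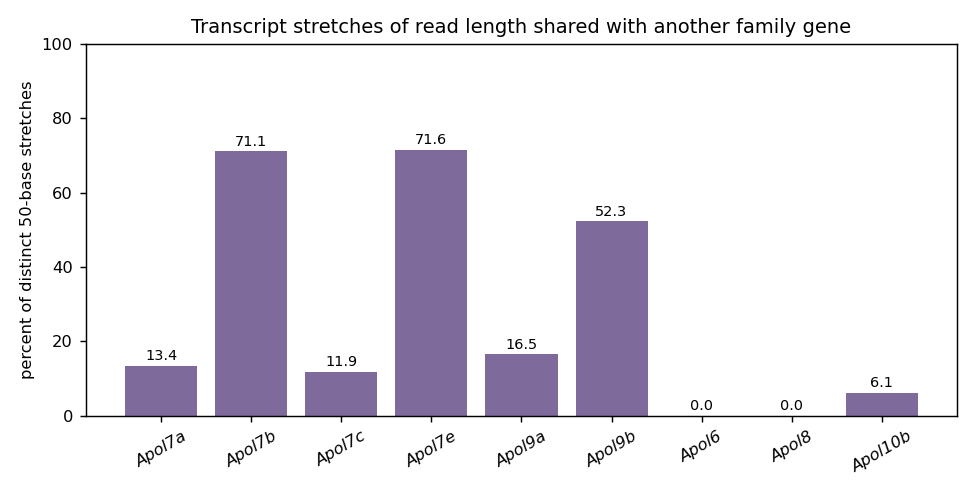
Percent of the distinct 50-base stretches in the transcripts of each gene that also occur in another apolipoprotein L gene (bars, y axis from 0 to 100%). Apol7b, Apol7e and Apol9b share more than 50% of their stretches, Apol7a, Apol7c and Apol9a share 11.9% to 16.5%, and Apol6 and Apol8 share 0%.

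The deposited TPM values, which are scaled for gene length, put Apol6 first in both groups, at 14.9 ± 2.07 TPM in AEW skin and 22.9 ± 5.10 TPM in vehicle skin (SD, n = 3 each). Apol6 alone made up 53.4% to 55.7% of the summed TPM of the 6 genes in AEW libraries and 51.5% to 67.5% in vehicle libraries. Below it, the order in AEW skin was Apol7c at 5.28 ± 1.43 TPM, Apol9b at 2.82 ± 0.365, Apol9a at 2.18 ± 0.676, Apol8 at 1.70 ± 0.210 and Apol7a at 0.477 ± 0.135 TPM. In vehicle skin it was Apol9a at 5.23 ± 2.16 TPM, Apol7a at 3.42 ± 0.778, Apol7c at 3.34 ± 1.33, Apol9b at 2.76 ± 1.69 and Apol8 at 0.960 ± 0.243 TPM. The library values of Apol9b and Apol9a overlapped in AEW skin, as did those of Apol9a and Apol8, whereas Apol7c stood above Apol9b and Apol7a below Apol8 in each of the 3 AEW libraries. In vehicle skin the ranges of Apol9a, Apol7a, Apol7c and Apol9b all overlapped, so their order there is not settled. Apol7a was thus last of the 6 in AEW skin, and 1.14% to 2.13% of their summed TPM in AEW libraries against 5.91% to 10.7% in vehicle libraries.

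**Figure D2:**
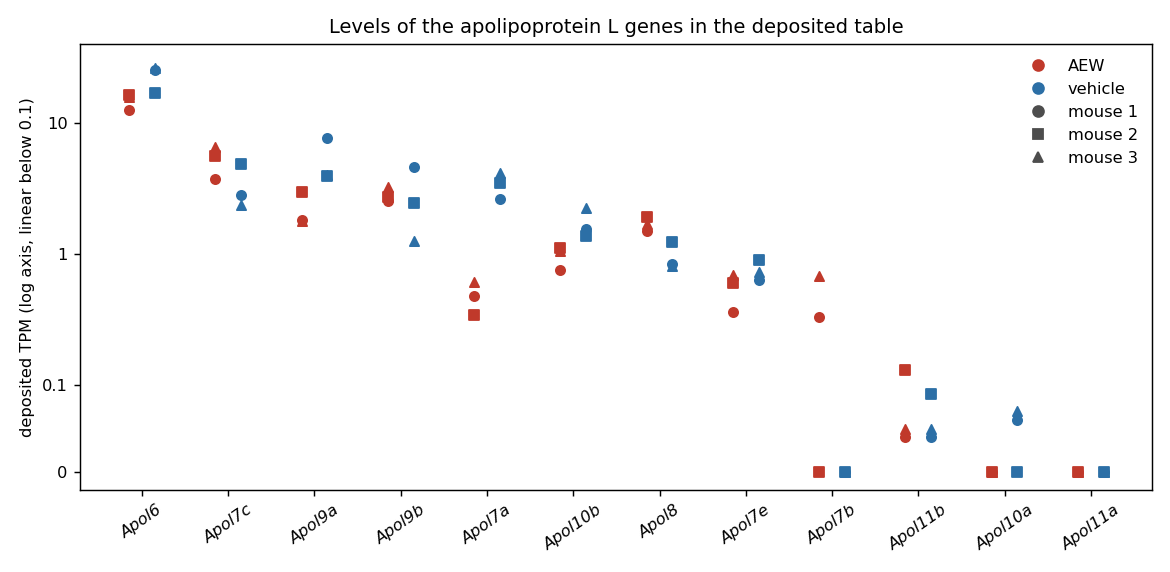
Deposited TPM of the 12 apolipoprotein L genes in the table (y axis, logarithmic and linear below 0.1), in AEW libraries (red, left) and vehicle libraries (blue, right), with a marker shape for each of the 3 mice. Apol6 is highest at 12.6 to 26.2 TPM, and Apol7a lies at 0.34 to 0.61 TPM in AEW libraries and 2.60 to 4.15 TPM in vehicle libraries.

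Apol7a (gene 75761) was far lower in AEW skin in each of the 3 mice. It had 12.5, 10.5 and 15.5 estimated counts in AEW cheeks of mice 1, 2 and 3, against 68.5, 90.3 and 105 in their vehicle cheeks. On the TMM-scaled CPM scale these were 0.597, 0.525 and 0.775 CPM in AEW cheeks and 3.71, 4.86 and 5.84 CPM in vehicle cheeks. The AEW values lay close together, and the highest of them was far below the lowest vehicle value. Means were 0.632 ± 0.129 CPM in AEW skin and 4.80 ± 1.06 CPM in vehicle skin (SD, n = 3 each), a fitted log2 fold change of -2.91 ± 0.29 (SE), which is a 7.53-fold lower level. Within mice 1, 2 and 3 the ratio of AEW over vehicle was 0.161, 0.108 and 0.133. Exact binomial 95% bounds on these ratios ran from 0.0791 to 0.299, from 0.0501 to 0.208 and from 0.0718 to 0.229. The 3 intervals overlapped one another. Intervals here and below cover counting error only.

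Of the 15109 tested genes, 5 had a lower fitted log2 fold change than Apol7a, which together with it make up 0.0397% of tested genes. These 5 were Tnnc1, Myl2, Upk3b, Ifitm6 and F830045P16Rik. Of the 6 members, Apol7a was the one called by the all-gene fit, lower in AEW skin, beside 11.6% of tested genes called in either direction, 4.85% higher and 6.8% lower. Since that contrast helped choose the set, nothing is read from this count. With the mouse as a block the members called were again 0 higher and 1 lower, beside 5.88% of tested genes called, 1.99% higher and 3.89% lower. Apol7a was not called with both cheeks of mouse 2 left out, where 14 genes were called higher and 16 lower. Nor was it called with mouse 3 left out, where 0 genes were called in either direction. DESeq2 called 0 members higher and 3 lower (Apol7a, Apol6 and Apol9a), beside 19.0% of tested genes called by that tool in either direction and 9.02% called higher. The genes it called lower numbered 1511 of 15108. The AEW and vehicle libraries did not overlap for 4 members, 3 lower and 1 higher, beside 19.5% of tested genes that were lower without overlap, 17.4% that were higher and 36.9% in either direction.

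**Figure D3:**
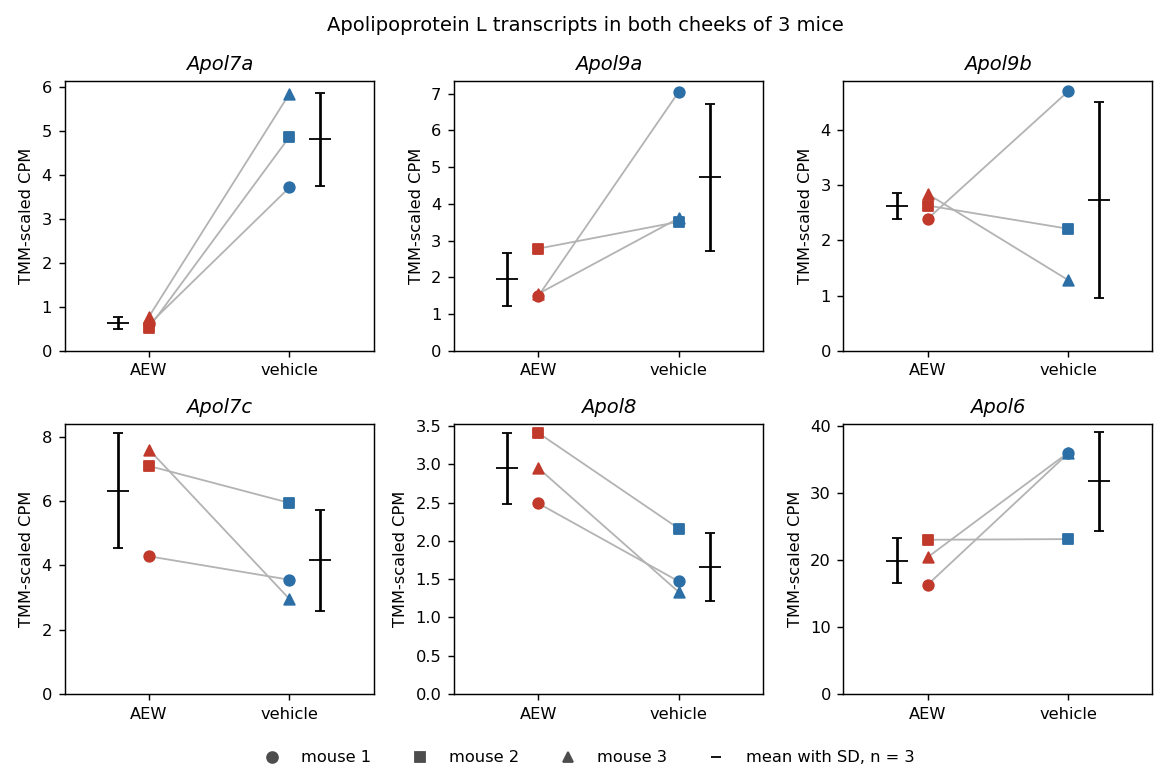
TMM-scaled CPM (y axis from 0) of the 6 members in AEW cheeks (red, left) and vehicle cheeks (blue, right), with lines joining the cheeks of each mouse and bars for the mean with SD over 3 mice. Apol7a lies in a narrow range of 0.525 to 0.775 CPM in AEW cheeks, whereas Apol9b and Apol7c overlap between the groups.

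Apol9a was lower in AEW skin beyond counting error in mice 1 and 3, and Apol9b in mouse 1. Apol9a (gene 223672) had 1.49, 2.78 and 1.55 CPM in AEW cheeks of mice 1, 2 and 3, against 7.05, 3.51 and 3.61 CPM in vehicle cheeks. Each AEW value was below each vehicle value, but in mouse 2 the ratio was 0.793 with an interval that included 1 (0.541 to 1.16), and the vehicle cheek of mouse 1 stood well above the others. The fitted log2 fold change was -1.28 ± 0.39 (SE), and it was -0.88 without the vehicle library of mouse 1 and -0.72 with both cheeks of mouse 1 left out. Apol9b (gene 71898) had 2.39, 2.63 and 2.84 CPM in AEW cheeks, against 4.70, 2.21 and 1.28 CPM in vehicle cheeks. It was lower in AEW skin in mouse 1 and higher in mouse 3, and its vehicle values enclosed all the AEW values. Its log2 fold change of -0.06 ± 0.45 (SE) turned to 0.64 when mouse 1 was left out.

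Since reads can fall in stretches that these genes share, their sum is also given. Together they had 78.0, 103 and 85.0 estimated counts in AEW cheeks, against 215, 106 and 88.0 in vehicle cheeks of mice 1, 2 and 3. Ratios of the sum, AEW over vehicle, were 0.330, 0.944 and 0.898, with exact bounds of 0.251 to 0.430, 0.713 to 1.25 and 0.659 to 1.22. Thus the sum was lower in AEW skin in mouse 1 beyond counting error, and in mice 2 and 3 the interval included 1. The share of Apol9a in the pair was lower in AEW skin: it made up 38.5%, 51.5% and 35.3% of the pair's counts in AEW cheeks, against 60.0%, 61.3% and 73.9% in vehicle cheeks. Exact 95% bounds were apart in mouse 1 (27.7% to 50.2% in AEW, 53.1% to 66.6% in vehicle) and in mouse 3 (25.2% to 46.4% in AEW, 63.4% to 82.7% in vehicle). They overlapped in mouse 2 (41.4% to 61.4% in AEW, 51.4% to 70.6% in vehicle), where a difference is not shown. Whether reads were divided correctly between the genes was not tested.

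Other interferon-induced transcripts also stood apart in mouse 1, but this was not particular to them. Medians within mice 1, 2 and 3 were -1.24, 0.02 and 0.26 log2 for Langerhans cell markers. For macrophage markers they were -1.0, 1.24 and 1.18 log2. Of 39 tested genes in the interferon alpha/beta-induced list, 0 were called higher and 0 lower by the edgeR quasi-likelihood test. An unadjusted p under 0.05 was found for 0 of them, beside 4654 of all 15109 tested genes. DESeq2 and limma on TPM also called 0 genes of the list. The median log2 fold change of the list was -0.28, beside 0.01 over all tested genes. Medians of the list within mice 1, 2 and 3 were -1.40, 0.66 and 0.06 log2. Its summed level was 947, 1450 and 1140 CPM in AEW cheeks, against 1940, 1020 and 1050 CPM in vehicle cheeks, so the vehicle cheek of mouse 1 was the highest of the 6, as it was for Apol9a and Apol9b. The genes of smallest p in the list were Isg20, an RNA exonuclease gene, Xaf1, Parp9 and Ifit2, with log2 fold changes of -0.39, -0.56, -0.33 and -0.63 and adjusted p of 0.194 to 0.292.

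With both cheeks of mouse 1 left out, Oas2, Oas3, Irf7 and Dhx58, 4 genes of the same list chosen after their values were seen, were called higher in AEW skin (log2 fold changes of 1.01, 1.17, 0.96 and 1.26, edgeR adjusted p of 0.0173 to 0.0393). In the gamma-induced list below, Irf8 was called higher there and Gbp2 lower (0.77 and -0.43 log2), also named after their values were seen. Over all genes, too, more were called higher without mouse 1 than the 733 with all mice, and fewer lower than the 1027. Whether either list stood out from all genes without mouse 1 was not tested. Apol9a kept a negative log2 fold change there and Apol9b a positive one, and the difference between the genes was not tested.

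Among 25 tested genes of the interferon gamma-induced list, 0 rose and 1 fell, with a median log2 fold change of -0.54. In this list 21 values were below 0 and 11 genes had an unadjusted p under 0.05. Over all 15109 tested genes, 7319 values were below 0 and 4654 genes had such a p. The gene that fell was Tgtp1, an interferon-induced GTPase of host defence, at 2.27 ± 0.805 CPM in AEW skin and 7.02 ± 2.24 CPM in vehicle skin (SD, n = 3 each; log2 fold change -1.63, adjusted p = 0.0336). The call did not hold when the mouse was added as a block (adjusted p = 0.0848). It was also lost without AEW replicate 2, vehicle replicate 1, vehicle replicate 3 or any 1 of the mice, at adjusted p of 0.0668 to 0.181. Reads of Tgtp1 and its close copy Tgtp2 (log2 fold change -0.91) may be hard to tell apart. Gbp2, a guanylate-binding protein gene, the chemokine gene Cxcl9 and Irgm2 came next by p, at -0.98, -1.18 and -0.83 log2, none of them past the threshold. Medians of the list within mice 1, 2 and 3 were -1.44, 0.04 and -0.37 log2. DESeq2 called 7 of its genes lower.

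Interferon receptors and their kinases gave 0 calls in either direction among 9 tested genes (edgeR), with 1 at an unadjusted p under 0.05, while DESeq2 called 1 lower and limma 0. Ifngr1, a chain of the interferon gamma receptor, stood at 92.1 ± 16.6 CPM in AEW skin and 127 ± 10.1 CPM in vehicle skin (SD, n = 3 each; log2 fold change -0.46, adjusted p = 0.0852). Jak2, Ifnar1 and Ifnar2 had log2 fold changes of -0.14, 0.13 and -0.10. The ligand gene Ifnb1 was listed at 0 in all 6 libraries.

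Apol6 (gene 71939) was lower in AEW skin beyond counting error in mice 1 and 3. Its levels were 16.3, 23.0 and 20.4 CPM in AEW cheeks of mice 1, 2 and 3, against 35.9, 23.1 and 36.0 CPM in vehicle cheeks. In mouse 2 the cheeks differed by less than counting error, and the groups were kept from overlap by the gap between its values. Its ratio of 0.995 had exact bounds of 0.869 to 1.14, whereas mouse 1 had a ratio of 0.453 (0.395 to 0.518) and mouse 3 one of 0.568, at most 0.644. The fitted log2 fold change was -0.67 ± 0.21 (SE). The interval of mouse 2 did not meet those of mice 1 and 3.

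Adipocyte markers, too, were near 0 in mouse 2 and lower in the others: medians over 6 markers within mice 1, 2 and 3 were -0.99, 0.03 and -1.17 log2, beside -1.14, -0.01 and -0.81 for Apol6. This order was not particular to adipocytes. Medians were -1.44, 0.04 and -0.37 log2 for the interferon gamma-induced list and -0.71, -0.18 and -0.67 for endothelial markers. The summed level of the adipocyte markers was 1050 to 1330 CPM in AEW libraries and 1330 to 2280 CPM in vehicle libraries, with none of the 6 at 0. Of these markers 1 fell, Adipoq, the adiponectin gene (149 ± 27.4 CPM in AEW skin and 287 ± 73.5 CPM in vehicle skin, SD, n = 3 each; adjusted p = 0.0399, and 0.114 under the block). DESeq2 called 4 of the markers lower, and leaving out a library or mouse gave 0 in each case but 1, with 4 lower without vehicle replicate 2. Cidec, a lipid droplet gene and one of the 3 genes closest in pattern to Apol6, had a log2 fold change of -0.91. It is itself one of the 6 adipocyte markers, so its values are already in their medians. The part of adipocytes in the Apol6 values was not tested.

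Apol6 also overlaps Mb, the myoglobin gene of muscle, which lies on the opposite strand in GRCm38 annotation, and Mb was chosen for mention after its values were seen. Mb stood at 820 ± 100 TPM in AEW skin and 1850 ± 244 TPM in vehicle skin (SD, n = 3 each), far above Apol6, and its log2 fold change was -1.22. Ratios of Mb were 0.409, 0.454 and 0.418 in mice 1, 2 and 3, alike across mice, whereas that of Apol6 was near 1 in mouse 2. No source used here says whether reads were counted by strand, so reads of these genes in their overlap cannot be told apart. In GENCODE M21 transcripts, 79 of the 4577 distinct 50-base stretches of Apol6 (1.73%) were also in some gene outside the listed family genes. That search covered both strands and all annotated genes, Mb included. The part of Mb reads in the Apol6 values was not tested.

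Apol7c and Apol8 were the members with higher values in AEW skin. Apol8 (gene 239552) had 2.49, 3.41 and 2.95 CPM in AEW cheeks of mice 1, 2 and 3, against 1.47, 2.16 and 1.33 CPM in vehicle cheeks. All its AEW values were above all its vehicle values, and its ratios were 1.69, 1.58 and 2.21, each with an exact interval just above 1 at its lower end (1.04, 1.05 and 1.35). The fitted log2 fold change was 0.83 ± 0.27 (SE). Apol7c (gene 108956) had 4.28, 7.09 and 7.60 CPM in AEW cheeks, against 3.55, 5.94 and 2.95 CPM in vehicle cheeks. It was higher in AEW skin in all 3 mice, yet the groups overlapped, and its ratio of 2.58 in mouse 3 (exact bounds 1.87 to 3.60) was above those of 1.20 and 1.19 in mice 1 and 2, whose intervals included 1. Its log2 fold change was 0.61 ± 0.33 (SE), and 0.26 with mouse 3 left out.

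**Figure D4:**
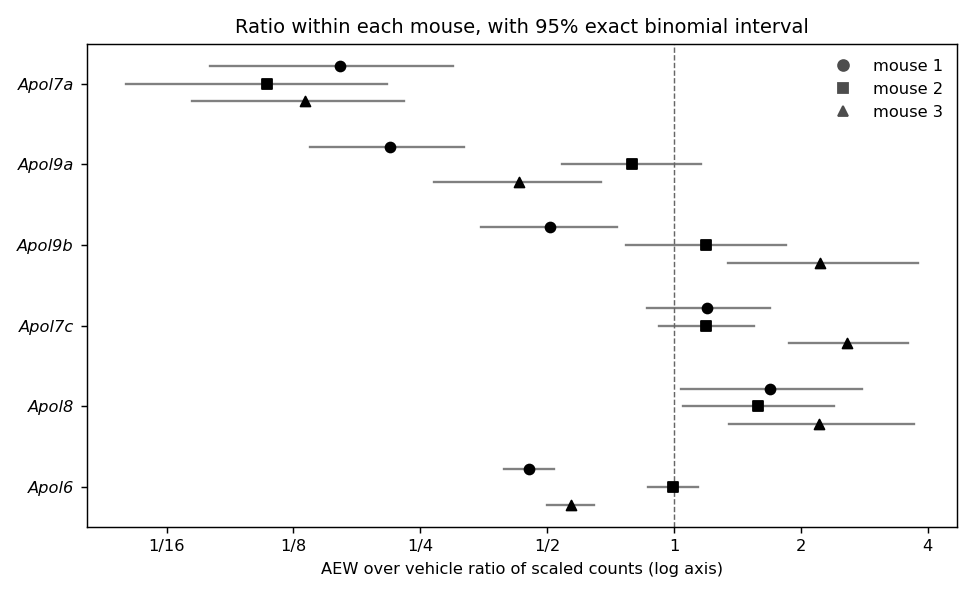
AEW over vehicle ratio of scaled counts within each mouse (x axis, logarithmic; dashed line at 1), with 95% exact binomial intervals that cover counting error only. The 3 mice have close values for Apol7a, at 0.108 to 0.161, and spread wider for Apol9a, Apol9b and Apol6.

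Dendritic cells are where Apol7c is known from. Of 12 tested conventional dendritic cell markers 1 rose and 0 fell, with within-mouse medians of -0.73, 0.31 and 0.58 log2 in mice 1, 2 and 3, beside 0.26, 0.25 and 1.34 for Apol7c. The marker that rose was Fscn1, an actin-bundling gene of mature dendritic cells (71.3 ± 15.5 CPM in AEW skin and 37.0 ± 0.762 CPM in vehicle skin, SD, n = 3 each; adjusted p = 0.0167), while Zbtb46, a transcription factor gene of these cells, had a log2 fold change of -0.64 (adjusted p = 0.0613). The summed level of the list was 158 to 194 CPM in AEW libraries and 113 to 160 CPM in vehicle libraries, with none of the 12 at 0. The Fscn1 call was lost without vehicle replicate 1, vehicle replicate 3, mouse 2 or mouse 3, and DESeq2 called 1 marker of the list lower. Langerhans cell markers had 0 of 7 called by edgeR, DESeq2 or limma, with 0 at an unadjusted p under 0.05. Macrophage markers split by mouse: their summed level was 549, 1450 and 1090 CPM in AEW cheeks of mice 1, 2 and 3, against 1160, 617 and 499 CPM in vehicle cheeks, so it was lower in AEW skin in mouse 1 and higher in mice 2 and 3. With all mice, 0 of 8 were called by edgeR, DESeq2 or limma and 0 had an unadjusted p under 0.05, whereas all 8 were called higher in AEW skin by edgeR with both cheeks of mouse 1 left out.

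Beside Apol8 and Apol7c, epidermal lists were higher in AEW skin. All 16 stress keratinocyte genes rose, with a median log2 fold change of 4.36, and 12 of them with the mouse as a block. Leaving out a library or a mouse gave 0 to 16 of them, with 8 without vehicle replicate 1, 7 without vehicle replicate 3, 5 without mouse 2 and 0 without mouse 3. Of 16 tested genes of terminal differentiation 6 rose and 0 fell, with a median of 0.92, with Casp14, Tgm3, Flg and Krt1 at the smallest p. That count was 10 with DESeq2, which also called 1 lower. It was 12 without AEW replicate 1 or without mouse 1, 4 without vehicle replicate 2, 3 without mouse 2, and 0 without vehicle replicate 1, vehicle replicate 3 or mouse 3. The lowest p among the stress genes were those of Gjb2, a gap junction gene, the keratin gene Krt16 and the late envelope genes Lce3d and Lce3e. The lists include genes chosen with these data known, and no part of these changes in the Apol8 and Apol7c values was tested.

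Genes closest in pattern to each member were named by Pearson's r of log2 CPM over the 6 libraries, which share mice and treatment. High values were common: 1188 of the 13248 genes searched had an r above 0.9 with Apol7a. For Apol7a the 10 closest were Lrrc2, Skint7, Actn2, Mybph, Klf9, Nexn, Abca5, Abra, Plcb4 and Dusp27, with r of 0.995 to 0.998. Among these, at least Actn2, Mybph, Nexn and Abra are genes of striated muscle. Skint7 belongs to a family expressed in skin epithelium, and Klf9 is a glucocorticoid-responsive transcription factor gene. The tissues of Lrrc2, Abca5, Plcb4 and Dusp27 are not described here. All 10 had log2 fold changes nearer 0 than that of Apol7a, from -0.69 for Klf9 to -2.10 for Mybph.

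Skeletal muscle markers as a list were lower in AEW skin, with 6 of 7 called and a median log2 fold change of -1.34. The count was 2 without AEW replicate 2, 2 without vehicle replicate 1, 1 without vehicle replicate 3, and 0 without mouse 2 or mouse 3. Their within-mouse medians were -1.60, -1.15 and -1.29 log2, against -2.44, -2.98 and -2.75 for Apol7a. Mylpf, a fast muscle myosin light chain gene, was at 1020 ± 80.8 CPM in AEW skin and 3170 ± 371 CPM in vehicle skin (SD, n = 3 each; adjusted p = 0.00478). The part of muscle in the Apol7a values was not tested. Mouse 1 had the muscle list median farthest below 0 and the Apol7a value nearest to 0. The exact intervals of the Apol7a ratios overlapped in all mice, so the order of its values across mice is within counting error. The muscle genes named above, picked for likeness to Apol7a, differed from the list in that mouse 1 was not farthest below 0. Within mice 1, 2 and 3, Actn2 had -1.11, -1.34 and -1.39 log2 and Mybph -1.79, -2.17 and -2.28. Abra had -1.34, -1.9 and -1.94 log2, and Nexn -1.45, -1.45 and -1.51.

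For Apol8 the closest genes were Olah, a thioesterase gene of fatty acid synthesis, Pmaip1, a pro-apoptotic gene, and Lce6a, a cornified envelope gene, with r of 0.993 to 0.997. Those of Apol7c were Ptgs2, the inducible prostaglandin synthase gene, Tmem238 and Psd4 (r of 0.986 to 0.989), and those of Apol6 were Dipk2b, Ppm1f and Cidec (r of 0.995 to 1.00). Apol9a was closest to Abcg2, Rnf139 and Smdt1 (r of 0.988 to 0.995) and Apol9b to Atp6v0d2, Mpv17l2 and Entpd1 (r of 0.971 to 0.987). None of the 6 genes named for the Apol9 pair was in either interferon list.

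**Figure D5:**
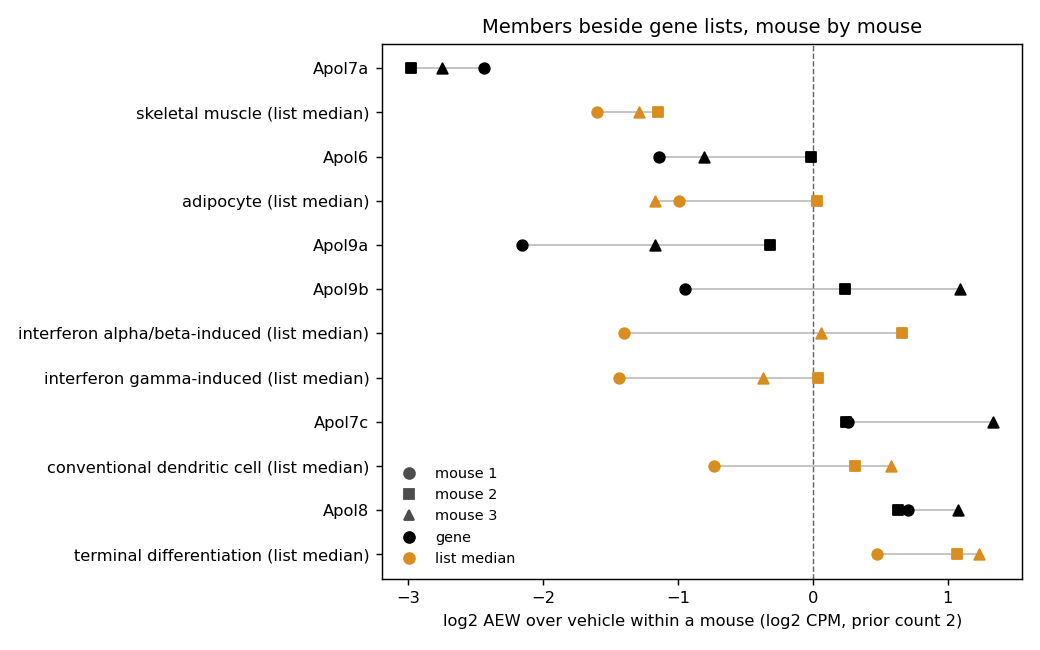
Log2 difference of AEW over vehicle within each of the 3 mice (x axis; dashed line at 0) for each member (black) and the median of a gene list (orange). Mouse 2 is near 0 for Apol6, the adipocyte list and the interferon gamma-induced list. Mouse 1 is lowest for Apol9a, Apol9b and both interferon lists. It is also lowest for Apol6 and for the skeletal muscle, conventional dendritic cell and terminal differentiation lists. Apol7a lies below the skeletal muscle list in every mouse.

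The rest of the family was low or undetected. Of the 3 further family genes tested, Apold1 included, 0 were called by edgeR, DESeq2 or limma. An unadjusted edgeR p under 0.05 was found for 2 of them, beside 4654 of all 15109 tested genes. In all, 12 genes named Apol followed by a number were in the table, and Apol7d and Apol10c-ps were not analysed here. Apol10b had 1.31 ± 0.356 CPM in AEW skin and 2.21 ± 0.594 CPM in vehicle skin (SD, n = 3 each), a log2 fold change of -0.76 that did not pass the test (edgeR adjusted p = 0.162). Apol7e had 0.722 ± 0.239 CPM in AEW skin and 1.02 ± 0.158 CPM in vehicle skin (SD, n = 3 each; log2 fold change -0.50, adjusted p = 0.365). Apol7b, its near copy, had 8.26, 0 and 16.8 estimated counts in AEW cheeks and 0 in all 3 vehicle cheeks, where a count of 0 allows up to 0.162 to 0.167 CPM. It did not pass the filter, and reads shared with Apol7e make its value uncertain. Apol10a had 0 counts in AEW cheeks and at most 2.29 in a vehicle cheek, Apol11b had at most 3.1 in any library, and Apol11a was listed at 0 in all 6.

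Over the Apol7 subfamily as a whole the cheeks differed less. The sum of Apol7a, Apol7b, Apol7c and Apol7e was 5.72, 8.45 and 10.1 CPM in AEW cheeks and 8.14, 12.0 and 9.78 CPM in vehicle cheeks. Ratios of the sum were 0.709 (95% exact binomial interval 0.551 to 0.909), 0.705 (0.572 to 0.867) and 1.04 (0.845 to 1.28) in mice 1, 2 and 3. The sum was lower in AEW skin beyond counting error in mice 1 and 2, and in mouse 3 the interval included 1. Apol7a was lower and Apol7c higher in AEW skin in each mouse, though for Apol7c beyond counting error in mouse 3 alone.

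Apold1, which encodes an endothelial protein with an apolipoprotein L-like domain and lies outside the cluster, had 3.30 ± 0.356 CPM in AEW skin and 4.67 ± 0.615 CPM in vehicle skin (SD, n = 3 each; log2 fold change -0.50, adjusted p = 0.141). Endothelial markers had 2 of 7 lower, Emcn and Cldn5, and a median of -0.55. The block on mouse left 1 of these calls (Cldn5 adjusted p = 0.0511), DESeq2 called 6, and leaving out a library or mouse gave 0 to 4.

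Some genes for apolipoproteins of blood lipoproteins, which share only the name with the L family, and for their receptors also differed between the cheeks. Vldlr, a receptor gene for triglyceride-rich particles, fell, at 39.7 ± 2.49 CPM in AEW skin and 71.9 ± 10.5 CPM in vehicle skin (SD, n = 3 each; edgeR adjusted p = 0.0125). Lrp8, another receptor gene of this family, and Apoc3, which encodes an apolipoprotein of triglyceride-rich particles, came out at 1.22 and -1.26 log2 (edgeR adjusted p 0.0171 and 0.0354). Under the block on mouse these p became 0.0555 and 0.0726, which do not pass.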

How the data were processed

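Per the labels' protocols, RNA was selected on oligo(dT) beads and sequenced as 50-base single reads. The authors deposited estimated counts, FPKM and TPM per gene and library, per the file headers; FPKM was not used. The submitters' processing notes name HISAT and GRCm39; the sources used here name no counting tool, annotation or strand setting. Estimated counts were rounded and fitted with the edgeR 4.0.16 quasi-likelihood test in R 4.3.3 (filterByExpr minimum count 10, TMM, with group alone). Benjamini-Hochberg adjustment covered 15109 genes, with a threshold of 0.05. CPM are counts over TMM-scaled library sizes. The fit was tested on simulated data. Limma 3.58.1 and DESeq2 1.42.0 were alternatives.

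The mouse number in the labels ties both cheeks of an animal together, which makes the libraries paired. The main fit did not use this pairing, and the fit with the mouse as a block did. Deviations from group means correlated at -0.244, -0.165 and -0.246 within mice, and at 0.0496 to 0.181 between cheeks of different mice. Replicates are separate mice, and all libraries differed by more than counting noise (smallest chi-square over its degrees of freedom 19.75). Members and lists were chosen with earlier results of these data known. Named were all members, all other family genes, the genes with the smallest p in each theme list (4) and in marker lists (2 at most), and the genes most alike in pattern (mean log2 CPM of at least 1, prior count 2). Other marker lists were T cell (1 of 6 lower, Cd3g; 0 with the mouse as a block), neutrophil (3 of 4 higher; 1 with the block), sebaceous gland (2 of 8 higher; 2 with the block) and fibroblast markers (1 of 6 higher; 0 with the block). Each of these counts reached 0 when some single library was left out. The neutrophil genes called were S100a9, Cxcr2 and S100a8, of which S100a8 and S100a9 are also in the stress keratinocyte list. A gene of the lipoprotein list, and the counts over that list, are not reported here.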

Additional observations from a re-analysis of the deposited data

How the results depend on the processing

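Over 15 alternatives the log2 fold change of Apol7a ran from -3.08 to -1.57, with -2.61 on log2(TPM + 0.1) and -1.57 on log2(TPM + 1), where the added value weighs most on low levels, and from -3.08 to -2.75 when a library or mouse was left out. Apol7c ran from 0.26 to 0.96, Apol6 from -0.97 to -0.44, Apol8 from 0.47 to 1.07 and Apol9a from -1.81 to -0.72, each with no change of sign, and Apol9b from -0.46 to 0.64 with the opposite sign in 5. DESeq2 placed 3 members past the threshold (Apol7a, Apol6 and Apol9a), beside 19.0% of all genes. Counts over all genes were 300 higher and 588 lower with the mouse as a block, 1362 higher with DESeq2 and 666 lower on either TPM scale, against 733 and 1027; leaving out a library or mouse gave 0 to 1197 higher and 0 to 1041 lower, with 1197 higher without AEW replicate 1 and 0 in both directions without mouse 3. Interferon gamma-induced genes called lower were 0 with the block, 7 with DESeq2 and 0 to 1 with a library or mouse left out, and those higher 0 to 1; alpha/beta-induced genes higher were 0 to 4. DESeq2 called 1 gene of interferon signalling lower. On the log2(TPM + 1) scale 6 of the 10 genes closest to Apol7a were the same. The causes of these shifts were not tested. Low counts limit Apol7a in AEW libraries and the family genes outside the set.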
